A study of Mus musculus with 34 samples.

Results

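The 10 genes described here carry interleukin 1 (IL-1) and interleukin 6 (IL-6) signals and the proteins that limit them: Il1b, Il1rn, Il1r1, Il6ra, Il6st, Osmr, Stat3, Socs1, Socs3 and Cish. They were taken from the tables by gene symbol, from a list made with earlier results of these data known, and all 10 were found in both deposited tables among 55487 gene IDs. Liver RNA was sequenced from male mice, 3 months old, after an intraperitoneal injection. In the first table, 5 libraries came from mice of genotype PiZ-p50-KO given PBS, 5 from PiZ mice given PBS, 6 from wild-type (WT) mice 2 hours after TNFa and 6 from WT mice given PBS, the vehicle. In the second table, 6 libraries came from WT mice injected with tunicamycin 24 hours earlier and 6 from WT mice given DMSO, its vehicle. Tunicamycin stops the attachment of N-linked sugars to proteins and so disturbs their folding in the endoplasmic reticulum. PiZ mice carry human alpha-1 antitrypsin in its Z form, which hepatocytes make and which polymerizes inside the endoplasmic reticulum. The PiZ-p50-KO mice carry the same transgene and lack p50, the NF-kB subunit encoded by Nfkb1. The promoter of the transgene, the strain background and the cells in which p50 is deleted are not given in the sources used here.

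IL-1beta, the product of Il1b, is made mostly by macrophages and neutrophils and binds the receptor encoded by Il1r1, and Il1rn encodes an antagonist that occupies this receptor without signalling. IL-6 binds the receptor encoded by Il6ra, oncostatin M binds the one encoded by Osmr, and both then use gp130, the product of Il6st, to activate the transcription factor STAT3. In liver, these signals drive the acute-phase response, in which hepatocytes secrete proteins such as serum amyloid A. Socs1, Socs3 and Cish encode SOCS proteins, which are made in response to STAT signals and inhibit the receptors and JAK kinases that started them.

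All values are log2 CPM, the log2 of a gene's reads in a library divided by the library's total in M reads, so that 1 unit is a doubling. Library depth was 35.5 to 54.0 M reads in 21 libraries of the first table and 34.3 to 47.8 M in the second. WT PBS library 2 stood apart: it had 10.2 M reads and 72.2% of its reads lay on coding genes (97.3 to 97.8% elsewhere in the table), and Alb, the albumin gene, was at 12.22 log2 CPM where the 21 other libraries had 15.43 to 16.49. Its values are given apart, and it was left out of the fits except where its inclusion is stated. Nfkb1 was lower in the PiZ-p50-KO than in the PiZ libraries (log2 fold change -1.20, limma adjusted p = 0.0145), but libraries 1 and 2 labelled PiZ-p50-KO had 4.51 and 4.86 log2 CPM, above the 3.92 to 4.34 of the other 5 WT PBS libraries. The sources used here do not say which part of Nfkb1 was deleted, so this level does not check the deletion, and values without these libraries are given below.

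The promoters of all 10 genes are in the RefSeq table of build GRCm38.p6, with 13 start sites in all. The 250 bases before each start were searched on both strands for the STAT motif TTCNNNGAA, the AP-1 motif TGANTCA and the consensus of NF-kB, the factor that p50 belongs to. There were 3 matches, 1 of each motif, in Socs3, in Il1rn and at the second start of Il1r1. These motifs occur in 7.02%, 6.75% and 7.25% of all 32851 promoters in the table. The sequences are shown because Socs3 encodes the feedback inhibitor of gp130 signalling and because Il1rn and Il1r1 encode the antagonist and its target receptor. Capitals mark the match, and the letters run 5′ to 3′ on the strand of the gene.
Socs3 promoter, chr11:117969367-117969616, minus strand, STAT match 154 to 146 bases before the start: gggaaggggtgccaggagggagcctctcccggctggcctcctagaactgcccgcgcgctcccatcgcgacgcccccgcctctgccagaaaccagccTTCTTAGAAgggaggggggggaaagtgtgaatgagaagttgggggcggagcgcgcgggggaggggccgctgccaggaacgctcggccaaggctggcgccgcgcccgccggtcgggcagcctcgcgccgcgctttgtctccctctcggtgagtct
Il1rn promoter, chr2:24336610-24336859, plus strand, AP-1 match 141 to 135 bases before the start: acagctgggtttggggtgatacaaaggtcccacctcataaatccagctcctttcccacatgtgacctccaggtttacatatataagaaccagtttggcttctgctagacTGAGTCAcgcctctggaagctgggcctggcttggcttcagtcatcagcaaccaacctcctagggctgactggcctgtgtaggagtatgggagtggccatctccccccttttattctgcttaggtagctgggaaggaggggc
Il1r1 promoter, second start, chr1:40266336-40266585, plus strand, NF-kB match 232 to 223 bases before the start: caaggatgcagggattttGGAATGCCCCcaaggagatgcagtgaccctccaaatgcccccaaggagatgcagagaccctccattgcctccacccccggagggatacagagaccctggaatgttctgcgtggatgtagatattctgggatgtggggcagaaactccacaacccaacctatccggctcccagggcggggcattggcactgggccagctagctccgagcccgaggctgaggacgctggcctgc
A match is a stretch of letters and was not tested for binding.

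The levels of the 10 genes relative to each other were compared per kilobase of annotated exon, in log2 CPM per kb, as means over the libraries of a group. Exon length was the union of all annotated exons, 6419 bases for Cish and 2908 for Socs1. Where the transcripts present are shorter than this union, the level per kb comes out too low, so the order depends on the annotation. In the 5 WT PBS libraries Il6st was the highest (3.97), followed by Stat3 (2.85), Socs3 (2.52), Il1r1 (1.95) and Il6ra (1.51). A gap separated these from the ligand Il1b (-1.29), Il1rn (-1.80), Osmr (-1.97), Cish (-2.22) and Socs1 (-3.37). In log2 CPM without division by length the gap remained, between Socs3 (4.05) and Osmr (1.63), but the order within both sets differed. The shared subunit, the transcription factor and the main receptors were thus present at rest, and the ligand, its antagonist, the oncostatin M receptor and 2 of the SOCS genes were at low levels. In TNFa livers the order was different: Socs3 was the highest (5.19), Il6st next (4.39), and Il1rn was the third (3.71). In PiZ livers Il6st stayed on top (4.59), with Socs3 (3.91) and Stat3 (3.22) after it and Il1rn at 2.58. Neighbours in these orders often lie closer than the spread between libraries, such as Stat3 and Socs3 in WT PBS, where the SD of Socs3 was 0.83.

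**Figure D1:**
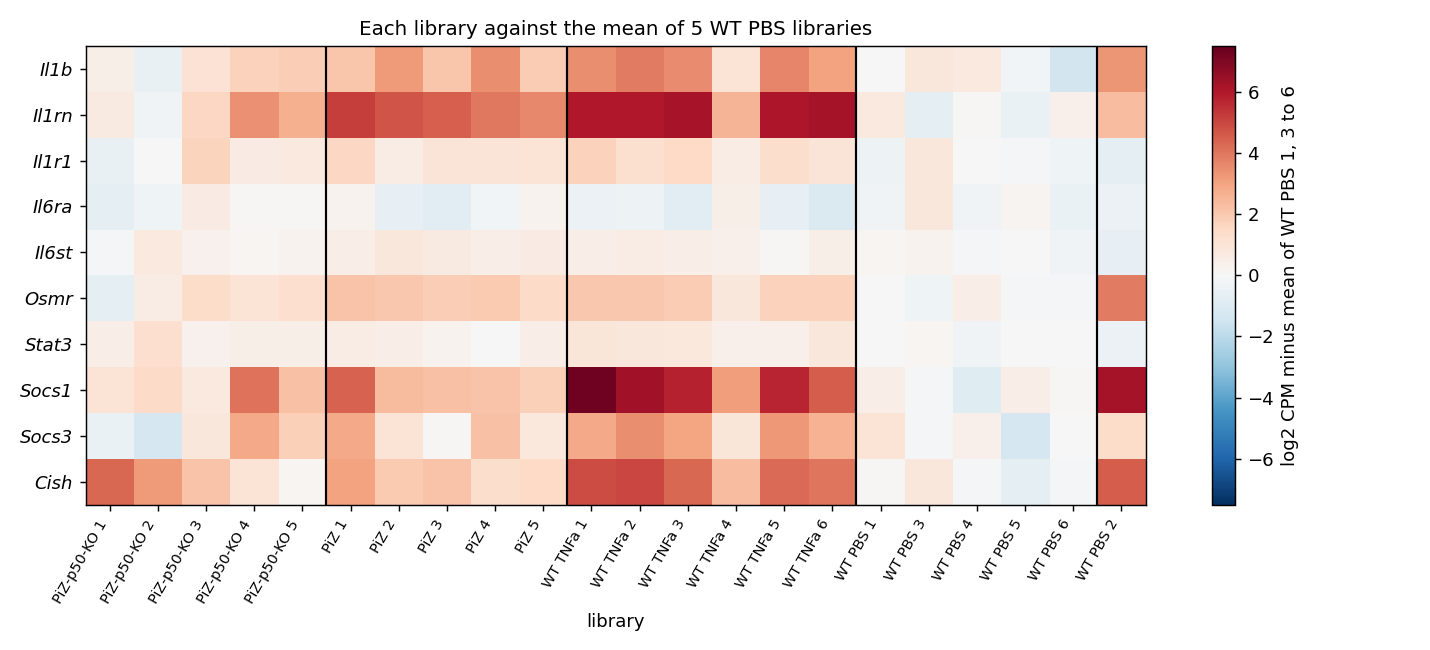
Each row is a gene and each column a library of the first table; colour is log2 CPM minus the mean of WT PBS libraries 1 and 3 to 6 (red higher, blue lower). Il1rn, Socs1 and Cish are the reddest rows in the WT TNFa libraries other than library 4, Il6ra stays near white, and WT PBS 2, in the last column, is red for Il1b, Il1rn, Osmr, Socs1 and Cish.

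In PiZ livers, the antagonist Il1rn, the ligand Il1b, the feedback genes Socs1 and Cish, and the receptor genes Osmr, Il1r1 and Il6st were higher than in WT PBS livers. Il1rn had the largest difference of the 10, 20.8-fold, and Il6st the smallest of the 7 that passed the test, 1.54-fold. Il6ra, Stat3 and Socs3 did not pass. This comparison asks what differs between livers with and without the Z transgene in mice given only PBS. No group carried the normal human form, so the Z form and the transgene itself cannot be told apart. So many genes were higher in PiZ livers, 45.6% of the 13285 tested with 6.19% lower, that 7 of 10 must be read against that share. The median log2 fold change was 1.62 for the 10 genes and 0.40 for all genes.

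Il1rn had 5.85, 5.39, 5.12, 4.60 and 4.28 log2 CPM in PiZ libraries 1 to 5, against 1.42, -0.04, 0.73, 0.20 and 1.02 in WT PBS libraries 1, 3, 4, 5 and 6. Every PiZ library was above every WT PBS library, by a wide margin. Its log2 fold change was 4.38 ± 0.65 (SE; limma, Benjamini-Hochberg adjusted p = 1.46e-05). Il1b had 1.71, 2.81, 1.74, 3.12 and 1.52 log2 CPM in PiZ livers, against -0.34, 0.52, 0.34, -0.56 and -1.75 in WT PBS livers. These groups did not overlap either, and the log2 fold change was 2.54 ± 0.54 (adjusted p = 0.000604). The gene of their common receptor, Il1r1, averaged 5.64 ± 0.35 log2 CPM in PiZ and 4.62 ± 0.50 in WT PBS (SD, n = 5 each). WT PBS library 3, at 5.48, was above the lowest PiZ library, at 5.20, and the log2 fold change was 1.02 ± 0.32 (adjusted p = 0.0114).

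Among the receptor genes of the IL-6 family, Osmr had 3.75, 3.63, 3.46, 3.59 and 3.05 log2 CPM in PiZ libraries, against 1.69, 1.29, 2.14, 1.48 and 1.57 in WT PBS libraries. The lowest PiZ library was above the highest WT PBS library, and the log2 fold change was 1.86 ± 0.30 (adjusted p = 3.42e-05), a 3.64-fold difference. Il6st, which encodes gp130, had 7.91, 8.30, 8.13, 7.91 and 8.04 log2 CPM in PiZ livers, against 7.57, 7.71, 7.33, 7.40 and 7.19 in WT PBS livers. Its groups were also apart, and the log2 fold change was 0.62 ± 0.14 (adjusted p = 0.000963). Il6ra, the receptor specific to IL-6, averaged 4.40 ± 0.47 in PiZ and 4.62 ± 0.52 in WT PBS livers (SD, n = 5 each). The libraries of both groups overlapped, and the 95% interval of its log2 fold change ran over -0.84 to 0.38 (adjusted p = 0.529). Stat3 averaged 6.47 ± 0.22 log2 CPM in PiZ and 6.10 ± 0.16 in WT PBS livers, a log2 fold change of 0.37 ± 0.16 that missed the threshold (adjusted p = 0.0588) but passed without PiZ library 4 (adjusted p = 0.0254) or WT PBS library 3 (adjusted p = 0.0495).

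Of the SOCS genes, Socs1, an inhibitor of JAK kinases, had 2.62, 0.53, 0.36, 0.29 and -0.05 log2 CPM in PiZ libraries 1 to 5, against -1.32, -1.99, -2.75, -1.31 and -1.75 in WT PBS libraries. PiZ library 1 stood above the other 4, and none of the PiZ libraries reached into the WT PBS range. Socs1 had a log2 fold change of 2.58 ± 0.68 (adjusted p = 0.00338). No WT PBS library in the fit had Socs1 above 1 CPM, the level required for testing, and 4 PiZ and 6 TNFa libraries did, so the gene was tested because of the groups in which it is high. Cish, a target and inhibitor of STAT5 signalling, had 3.50, 2.41, 2.61, 1.76 and 1.96 log2 CPM in PiZ livers, against 0.52, 1.34, 0.40, -0.23 and 0.29 in WT PBS livers. The groups were apart, with a log2 fold change of 1.98 ± 0.60 (adjusted p = 0.0091). Socs3, which binds gp130 and blocks it, had 6.89, 5.05, 4.15, 6.26 and 4.85 in PiZ livers, against 5.06, 3.96, 4.43, 2.79 and 4.03 in WT PBS livers. PiZ libraries 1 and 4 were above all WT PBS libraries and the others overlapped them. The log2 fold change of 1.39 ± 0.66 did not pass (adjusted p = 0.0857), but did so narrowly without PiZ library 3 (1.71, adjusted p = 0.04996). Socs3 also passed with only the 2 groups in the fit and with the replicate number as a block (lowest limma adjusted p = 0.00405).

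In all, 6 of the 10 genes had PiZ and WT PBS libraries that did not overlap, all 6 higher, where 31.4% of all genes tested were apart in that direction. Macrophage markers moved with these genes: 10 of 11 were higher and 1, Cd163, was lower in PiZ livers, and their summed level was 514 to 739 CPM in PiZ and 133 to 159 CPM in WT PBS libraries. Of the neutrophil markers 1 of 6 tested was higher, and of the stellate cell markers 6 of 6, the cholangiocyte markers 4 of 5 and the endothelial markers 5 of 6, while 4 of 6 hepatocyte markers were lower. Only 1 of 9 lymphocyte markers was high enough to be tested, and it did not pass. The part of cell composition in the changes was not tested, and in bulk liver RNA more cells of a type and more RNA per cell cannot be told apart. The scaling matters here: with every library set to the same median, 2315 genes were higher and 2990 lower in PiZ livers, against 6064 and 822 without this shift. Il1rn (log2 fold change 3.89), Il1b (2.05), Socs1 (2.09) and Osmr (1.38) still passed with equal medians, whereas Il1r1 (0.53), Il6st (0.13) and Cish (adjusted p = 0.0531) did not and Stat3 turned to -0.12. Quantile normalization differed for 2 of these genes: Il6st passed (0.54, limma adjusted p = 0.00297) and Socs1 did not (1.44, adjusted p = 0.0859). Il1rn, Il1b and Osmr passed with either scaling, and Il1r1 and Cish with neither. With WT PBS 2 included in the fit, 4 of the 10 genes passed, and Osmr (1.22, adjusted p = 0.142), Socs1 (1.54, adjusted p = 0.336) and Cish (1.23, adjusted p = 0.333) did not.

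**Figure D2:**
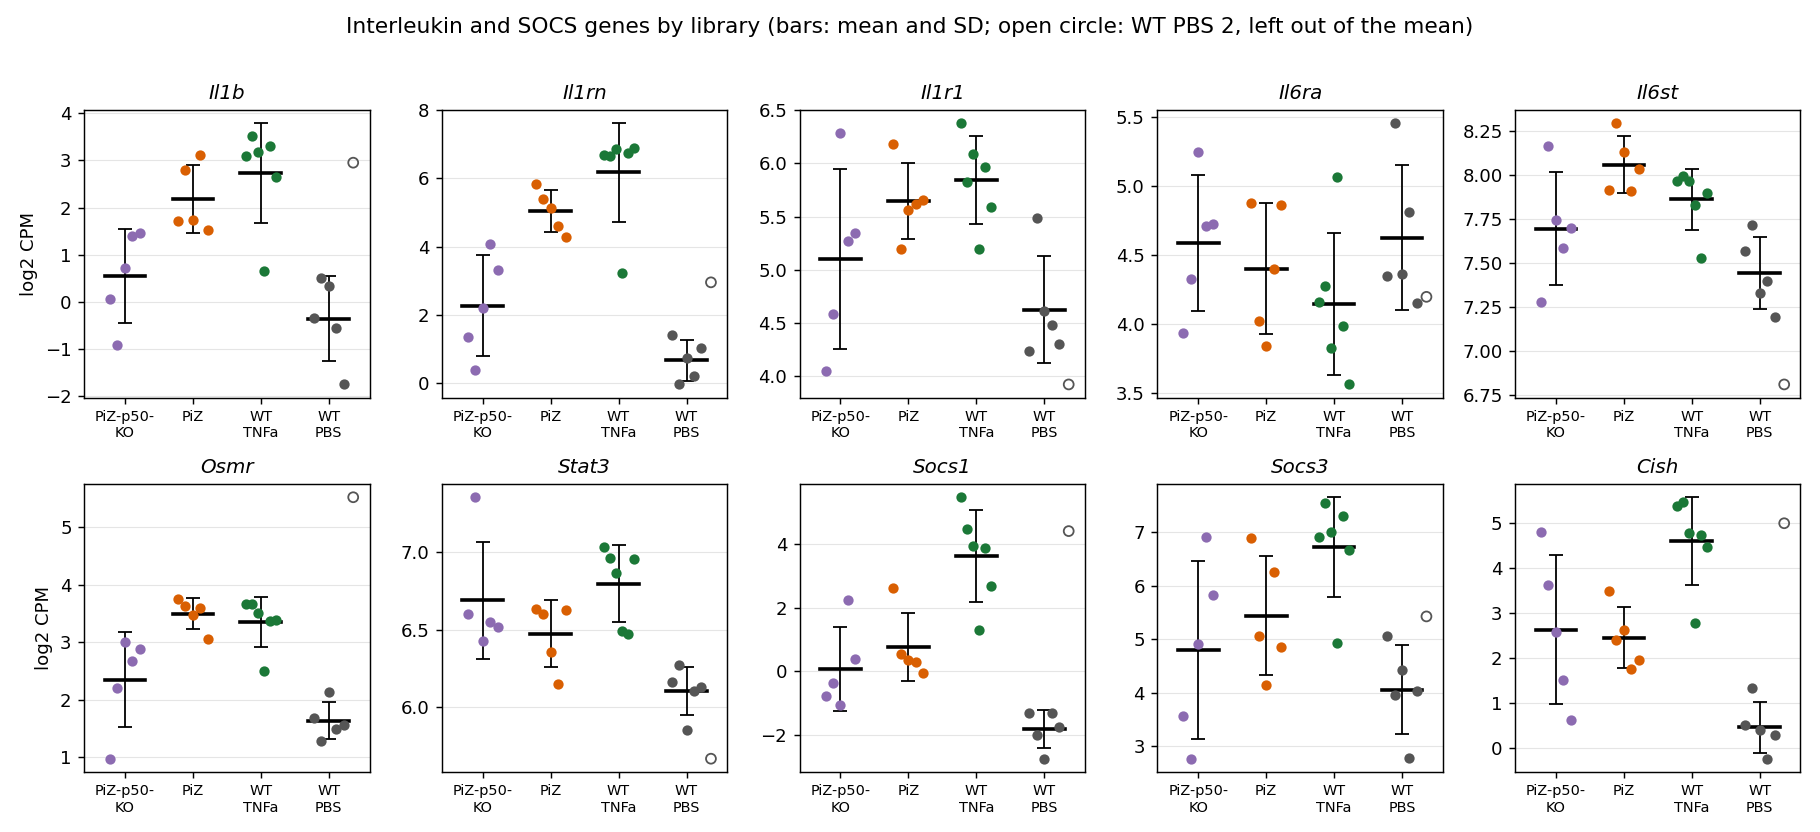
Levels of the 10 genes in log2 CPM in the libraries of the first table; each filled point is a library, bars are the mean and SD of the group without WT PBS 2, and the open circle is WT PBS 2. For Il1rn the PiZ libraries lie between 4.28 and 5.85 and the 5 WT PBS libraries between -0.04 and 1.42; for Socs3 the groups overlap.

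The neighbours of the 10 genes in the pathway are described by lists of 107 genes. The 6 inflammasome genes tested, among them Casp1, which encodes the caspase that processes IL-1beta, were all higher in PiZ livers. Casp4, which senses lipopolysaccharide inside the cell, rose by 4.54 ± 0.50 on the log2 scale (adjusted p = 5e-07). The counts of the other lists stand against the 45.6% of all genes that were higher and the 6.19% that were lower. Of the proteins that act below the IL-1 receptor, 8 of 14 were higher, with a median log2 fold change of 0.51, near the 0.40 of all genes. In the IL-1 family, Il1a, Il33 and Il18bp were higher and Il1rap, the coreceptor that Il1r1 needs to signal, was lower (log2 fold change -0.56 ± 0.14, adjusted p = 0.00212), among 6 tested. Of 9 JAK and STAT genes tested 7 were higher, with a log2 fold change of 0.82 ± 0.18 for Jak2 (adjusted p = 0.00081). Lifr, which pairs with gp130 to bind LIF, fell by 1.25 on the log2 scale (adjusted p = 0.000142), while Il27ra, another partner of gp130, was higher, among 5 IL-6 family genes tested.

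Of the 24 genes on the acute-phase list, 10 were higher and 3, Saa4, Fga and Fgg, were lower in PiZ livers, a share of higher genes no greater than the 45.6% of all genes. The list also holds the transcription factor genes Cebpb, Cebpd and Junb, and membership does not show that a gene is induced in this response. Lcn2, an iron-scavenging protein of this response, had the largest difference, a log2 fold change of 6.91 ± 0.61 (adjusted p = 3.8e-08), and Saa2, a serum amyloid A gene, rose by 3.14 ± 0.60 (adjusted p = 0.000218). Of the other SOCS, PIAS and phosphatase genes 8 of 14 were higher, with a median log2 fold change of 0.42, led by Ptprc, the leukocyte phosphatase CD45, at 2.50 ± 0.25 (adjusted p = 1.93e-07). Of 7 growth hormone and STAT5 genes 1, Igfbp3, was higher and 3, Igfals, Serpina3k and Ghr, were lower. The transcripts of the cytokines that act on these receptors were too low to test: per library, Il6 had 0 to 10 reads in PiZ and 0 to 2 in WT PBS livers, Osm 4 to 16 in PiZ and 0 to 8 in WT PBS livers, and Lif 4 to 39 in PiZ and 0 to 2 in WT PBS livers. Their ranges overlap for Il6 and Osm, and for Lif the lowest PiZ library had more reads than the highest of the 5 WT PBS libraries. WT PBS 2 had 23, 57 and 531 reads of Il6, Osm and Lif.

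At 2 hours after TNFa, 9 of the 10 genes were higher than in WT PBS livers, and only Il6ra did not pass the test. In this comparison 7.63% of all genes tested were higher and 4.05% lower, and the median log2 fold change was 2.19 for the 10 genes and -0.02 for all genes. The largest differences were 45.7-fold for Il1rn, 43.5-fold for Socs1 and 17.6-fold for Cish, all genes of inhibitors. Socs1 had only 6 to 21 reads in each WT PBS library of the fit, so the size of its fold and its place in this order are uncertain. Its log2 fold change was 3.41 in the alternative that gave the lowest value. The design asks what a known NF-kB stimulus changes in WT liver. Of the 10 genes, 6 had TNFa and WT PBS libraries that did not overlap, all 6 higher, where 3.94% of all genes were apart in that direction.

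Il1rn ranged over 3.23 to 6.88 log2 CPM with a median of 6.72 in the 6 TNFa libraries, against -0.04 to 1.42 in the 5 WT PBS libraries. The 5 TNFa libraries other than library 4 lay between 6.67 and 6.88, and library 4 was far below them but still above WT PBS. This gave a log2 fold change of 5.51 ± 0.62 (limma, adjusted p = 6.93e-06). Il1b ranged over 0.65 to 3.51 with a median of 3.15 in TNFa livers, against -1.75 to 0.52 in WT PBS livers, again with library 4 the lowest and no overlap. Its log2 fold change was 3.09 ± 0.52 (adjusted p = 0.000348). Il1r1 ranged over 5.20 to 6.38 with a median of 5.89 in TNFa livers, against 4.24 to 5.48 in WT PBS livers, where only library 3 reached into the TNFa range. The log2 fold change was 1.22 ± 0.31 (adjusted p = 0.0102).

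Socs1 ranged over 1.29 to 5.47 log2 CPM with a median of 3.89 in TNFa livers, against -2.75 to -1.31 in WT PBS livers. All TNFa libraries were above all WT PBS libraries, and the log2 fold change was 5.44 ± 0.65 (adjusted p = 1.36e-05). Cish ranged over 2.78 to 5.46 with a median of 4.76 in TNFa livers, against -0.23 to 1.34 in WT PBS livers, without overlap, and its log2 fold change was 4.14 ± 0.58 (adjusted p = 5.92e-05). Socs3 ranged over 4.93 to 7.54 with a median of 6.96 in TNFa livers, against 2.79 to 5.06 in WT PBS livers, and overlapped only because of TNFa library 4. Its log2 fold change was 2.67 ± 0.64 (adjusted p = 0.0069), a 6.37-fold difference.

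The receptor genes and Stat3 changed less. Osmr ranged over 2.49 to 3.67 log2 CPM in TNFa livers, against 1.29 to 2.14 in WT PBS livers, with no overlap and a log2 fold change of 1.72 ± 0.29 (adjusted p = 0.00033). Stat3 ranged over 6.47 to 7.04 in TNFa livers, against 5.85 to 6.27 in WT PBS livers, also without overlap, and rose 1.62-fold (log2 fold change 0.69 ± 0.15, adjusted p = 0.00398). Stat5a, whose gene overlaps Stat3 on the other strand, reached at most 5.86 log2 CPM in the libraries of the first table other than WT PBS 2. Whether the counting used strand is not given in the sources used here. Il6st was 1.34-fold higher (log2 fold change 0.42 ± 0.13, adjusted p = 0.0418), with overlapping libraries, and this call was lost in 8 of the 11 fits that each left out 1 library of the comparison (adjusted p up to 0.129). Il6ra averaged 4.14 ± 0.52 log2 CPM in the 6 TNFa libraries and 4.62 ± 0.52 in the 5 WT PBS libraries (SD), and the 95% interval of its log2 fold change was -1.06 to 0.10 (adjusted p = 0.344).

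TNFa library 4 was the lowest of its group for Il1b, Il1rn, Il1r1, Osmr, Socs1, Socs3 and Cish, and the highest for Il6ra. Without it the same comparison gave larger differences, with log2 fold changes of 6.10 for Il1rn, 5.91 for Socs1, 4.50 for Cish, 3.51 for Il1b and 3.03 for Socs3, and 9 genes still passed. The neutrophil markers moved with these genes: 3 of 6 tested were higher, and their summed level was 58.1 to 122 CPM in 5 TNFa libraries and 8.97 CPM in library 4, against 2.46 to 23.2 CPM in WT PBS. Of the macrophage markers 2 of 11 were higher, and 5 had an unadjusted p under 0.05 in limma, all higher. Their summed level was 176 to 262 CPM in TNFa and 133 to 159 CPM in WT PBS libraries, without overlap. Camp, a marker of maturing neutrophils, had no read in the 5 WT PBS libraries. What part these cells have in the changes was not tested. With WT PBS 2 included in the fit, Osmr (1.07, adjusted p = 0.293) and Il6st (0.53, adjusted p = 0.0738) no longer passed.

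In the neighbouring lists, the counts after TNFa stand against the 7.63% of all genes that were higher. Nlrp3, the sensor of the inflammasome that activates caspase-1, rose by 4.31 ± 0.49 on the log2 scale (adjusted p = 6.91e-06) and Casp4 was the only other inflammasome gene higher, of 6 tested. Of the proteins below the IL-1 receptor 4 of 14 were higher, Irak3, Myd88, Irak2 and Traf6. Among 9 JAK and STAT genes 4 were higher, among them Stat5a, Stat2 and Jak2, with a log2 fold change of 0.86 for Jak2 (adjusted p = 0.00191). Socs2, another SOCS gene that STAT5 induces, rose by 1.78 on the log2 scale (adjusted p = 0.00849).

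Of the 24 acute-phase genes 11 were higher after TNFa, among them Lcn2 (log2 fold change 5.09, adjusted p = 8.15e-06), Saa3 (4.18 ± 0.67, adjusted p = 0.000206) and Saa2 (3.94 ± 0.58, adjusted p = 9.2e-05). None of the 5 IL-6 family genes tested passed limma's adjusted threshold, and 0 had an unadjusted p under 0.05. Il1a rose by 1.44 on the log2 scale (adjusted p = 0.00538). Reads of Il6 numbered 2 to 36 per TNFa library and 0 to 2 per WT PBS library, apart from WT PBS 2, too few for the test, and the groups met at 2 reads.

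PiZ and TNFa livers share their WT PBS controls, so the groups were also compared directly. Only Socs1 and Cish passed, both lower in PiZ than in TNFa livers. Among all genes tested, 8.11% were lower and 47.7% higher in PiZ livers, and the median log2 fold change was -0.44 for the 10 genes and 0.39 for all genes. Socs1 averaged 0.75 ± 1.06 log2 CPM in 5 PiZ libraries and 3.62 ± 1.45 in 6 TNFa libraries, a log2 fold change of -2.86 ± 0.65 (adjusted p = 0.000888). Cish averaged 2.45 ± 0.68 in PiZ and 4.60 ± 0.97 in TNFa livers, a log2 fold change of -2.15 ± 0.58 (adjusted p = 0.00348). Both genes overlapped between the groups because of TNFa library 4, and for Cish and Socs1 the other TNFa libraries were above all PiZ libraries.

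For the remaining 8 genes no difference between PiZ and TNFa livers passed, which does not show that they were alike. Il1rn averaged 5.05 ± 0.62 log2 CPM in PiZ and 6.18 ± 1.45 in TNFa livers (log2 fold change -1.13 ± 0.62, adjusted p = 0.129), and Socs3 5.44 ± 1.11 in PiZ and 6.72 ± 0.93 in TNFa livers (-1.29 ± 0.64, adjusted p = 0.0912). Osmr was nearly level, at 3.50 ± 0.27 in PiZ and 3.35 ± 0.44 in TNFa livers (0.15, adjusted p = 0.682). Without TNFa library 4, 5 genes passed, with Il1rn at -1.72 (adjusted p = 0.00538), Stat3 at -0.39 (adjusted p = 0.0435) and Socs3 at -1.64 (adjusted p = 0.0295) added to Socs1 and Cish. Crp, an acute-phase gene (log2 fold change -2.46, adjusted p = 2.07e-07), Saa3 and Socs2 (-2.23, adjusted p = 0.000233) were lower in PiZ livers, and Pycard, the adaptor of the inflammasome, was higher (2.08, adjusted p = 2.43e-05).

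**Figure D3:**
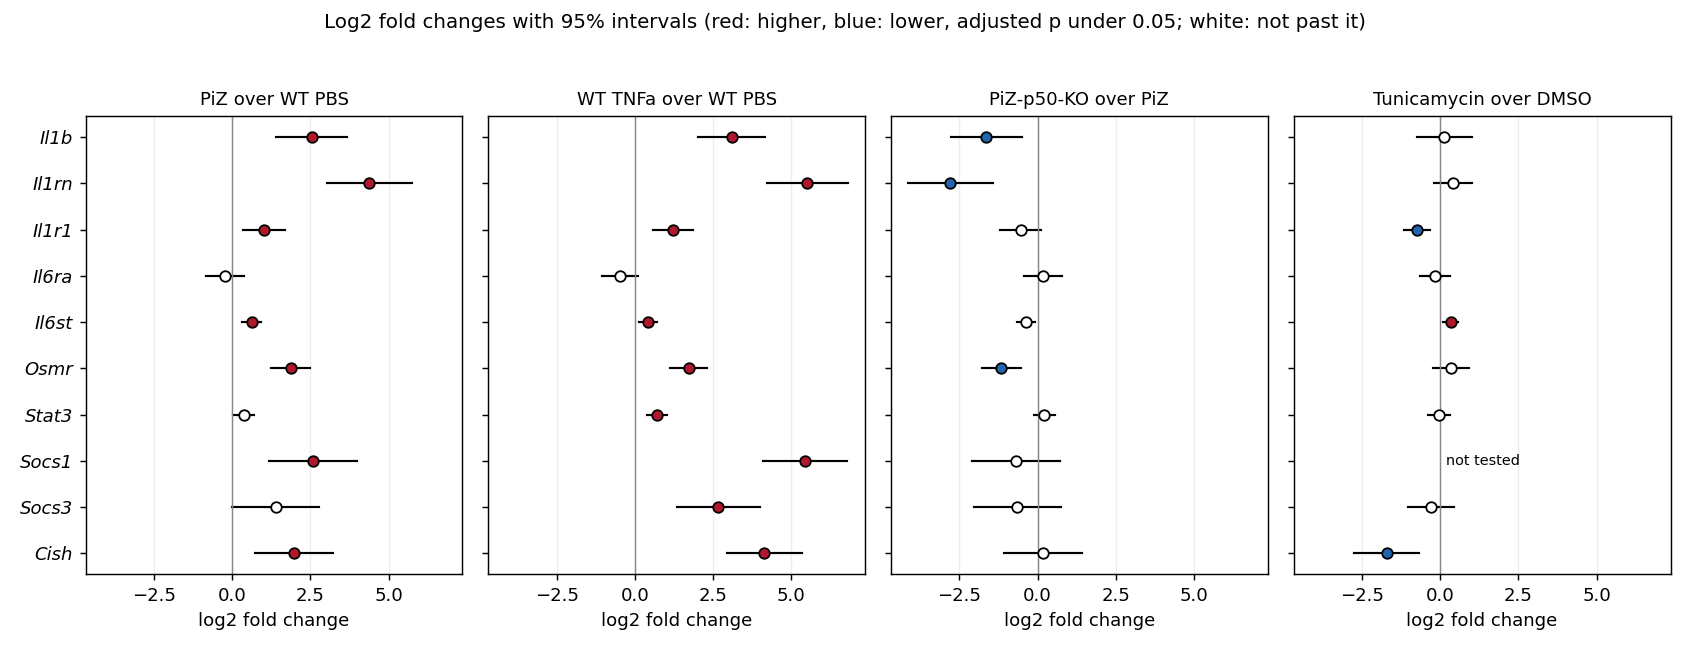
Log2 fold change of each of the 10 genes with its 95% interval in 4 comparisons; red points passed as higher, blue as lower, white points did not pass limma's adjusted threshold of 0.05. In PiZ over WT PBS 7 points are red, in TNFa over WT PBS 9, in PiZ-p50-KO over PiZ 3 are blue, and in tunicamycin over DMSO Il6st is red and Il1r1 and Cish are blue, with Socs1 not tested.

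In the livers labelled PiZ-p50-KO, Il1rn, Il1b and Osmr were lower than in PiZ livers, by 6.88-fold, 3.10-fold and 2.22-fold. The other 7 genes did not pass. This comparison asks which changes of the PiZ liver depend on p50. Among all genes, 21.6% were lower and 3.36% higher, and the median log2 fold change was -0.59 for the 10 genes and -0.22 for all genes. All 3 genes also had groups that did not overlap, where 11.9% of all genes were apart and lower. Without libraries 1 and 2 labelled PiZ-p50-KO, whose Nfkb1 level was described above, limma called 0 of the 10 genes, with 3 at an unadjusted p under 0.05. That fit has 3 PiZ-p50-KO libraries in place of 5. With WT PBS 2 added, which widens the shared spread, only Il1rn passed (adjusted p = 0.0304).

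Il1rn had 1.34, 0.39, 2.20, 4.08 and 3.32 log2 CPM in PiZ-p50-KO libraries 1 to 5, against 5.85, 5.39, 5.12, 4.60 and 4.28 in PiZ libraries. Libraries 1 and 2 were the lowest, and library 4 was just below the lowest PiZ library. The log2 fold change was -2.78 ± 0.65 (limma, adjusted p = 0.00408), and it was -1.85 (adjusted p = 0.0771) without libraries 1 and 2. Osmr had 0.97, 2.20, 2.99, 2.66 and 2.88 log2 CPM in PiZ-p50-KO livers, against 3.75, 3.63, 3.46, 3.59 and 3.05 in PiZ livers. Library 3 was just below the lowest PiZ library, and library 1 was lower than any WT PBS library. The log2 fold change was -1.15 ± 0.30 (adjusted p = 0.00807), and -0.65 (adjusted p = 0.0853) without libraries 1 and 2.

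Il1b had 0.06, -0.91, 0.73, 1.39 and 1.47 log2 CPM in PiZ-p50-KO libraries 1 to 5, against 1.71, 2.81, 1.74, 3.12 and 1.52 in PiZ libraries. Library 5, at 1.47, was just below PiZ library 5, at 1.52. The log2 fold change of -1.63 ± 0.54 passed narrowly (adjusted p = 0.0326), and the call was lost without PiZ-p50-KO library 1 (adjusted p = 0.0826), PiZ-p50-KO library 2 (0.103), PiZ library 2 (0.0862) or PiZ library 4 (0.0699). With libraries set to equal medians, Il1b had a log2 fold change of -1.37 (adjusted p = 0.0855), Osmr one of -0.89 (adjusted p = 0.0473) and Il1rn one of -2.52, while Stat3 passed as higher, at 0.48 (adjusted p = 0.0200). In that scaling 1307 genes were higher and 1210 lower, against 447 and 2866 without it.

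Socs3 and Cish had the largest SDs of the 10 genes among the PiZ-p50-KO libraries, 1.67 and 1.66, with Il1rn next at 1.48. Socs3 had 3.57, 2.77, 4.91, 6.91 and 5.83 log2 CPM in them, against 6.89, 5.05, 4.15, 6.26 and 4.85 in PiZ libraries. Libraries 1 and 2 were at 2.77 to 3.57 and libraries 3 to 5 at 4.91 to 6.91, within or above the PiZ range. Cish went the other way, at 4.80, 3.63, 2.58, 1.52 and 0.62 log2 CPM in PiZ-p50-KO livers, against 3.50, 2.41, 2.61, 1.76 and 1.96 in PiZ livers. Here libraries 1 and 2 were the highest of the 10, and libraries 4 and 5 the lowest. The log2 fold changes were -0.64 ± 0.66 for Socs3 (adjusted p = 0.518) and 0.18 ± 0.60 for Cish (adjusted p = 0.860), and both changed sign, to 0.45 and -0.88, without libraries 1 and 2. Socs1 had -0.77, -0.38, -1.08, 2.22 and 0.38 log2 CPM in PiZ-p50-KO livers, against 2.62, 0.53, 0.36, 0.29 and -0.05 in PiZ livers, a log2 fold change of -0.68 ± 0.68 (adjusted p = 0.502).

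None of the receptor and signalling genes Il6st, Il1r1, Stat3 and Il6ra passed limma's adjusted threshold between the PiZ-p50-KO and PiZ livers, which does not show that they were alike. Il6st averaged 7.69 ± 0.32 log2 CPM in PiZ-p50-KO and 8.06 ± 0.16 in PiZ livers (log2 fold change -0.36 ± 0.14, adjusted p = 0.0609, unadjusted p under 0.05), and passed without PiZ-p50-KO library 2 (-0.48, adjusted p = 0.0124) or without PiZ library 4 (-0.40, adjusted p = 0.0478). Il1r1 averaged 5.10 ± 0.84 in PiZ-p50-KO and 5.64 ± 0.35 in PiZ livers (-0.54 ± 0.32, 95% interval -1.20 to 0.13, adjusted p = 0.231), and passed without PiZ-p50-KO library 3 (-0.83, adjusted p = 0.0376). Stat3 averaged 6.69 ± 0.38 in PiZ-p50-KO livers, with library 2 at 7.36 above the others, and 6.47 ± 0.22 in PiZ livers (0.22 ± 0.16, adjusted p = 0.343). Il6ra averaged 4.59 ± 0.49 in PiZ-p50-KO and 4.40 ± 0.47 in PiZ livers (0.19 ± 0.29, adjusted p = 0.683).

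Macrophage markers moved with Il1rn, Il1b and Osmr: 10 of 11 were lower in the PiZ-p50-KO livers. Their summed level was 225, 224, 261, 403 and 413 CPM in PiZ-p50-KO libraries 1 to 5, against 514 to 739 CPM in PiZ libraries, and their part in the result was not tested. Of the stellate cell markers 5 of 6 were lower, of the cholangiocyte markers 3 of 5, and of the hepatocyte markers 3 of 6 were higher. None of the 6 neutrophil markers tested passed limma's adjusted threshold, and 2 were lower at an unadjusted p under 0.05. In the neighbouring lists, where 21.6% of all genes were lower, the inflammasome genes Casp4 (log2 fold change -2.99, adjusted p = 0.00027), Casp1 (-1.37, adjusted p = 0.00494) and Pycard were lower, of 6 tested. Il33, an alarmin of the IL-1 family, was lower (-1.26, adjusted p = 0.000138), as was Il18bp, which encodes a secreted protein that binds and blocks IL-18, of 6 tested. Of 9 JAK and STAT genes Jak1 and Jak2 were lower, Jak2 by a log2 fold change of -0.56 (adjusted p = 0.0297). Of 24 acute-phase genes 3 were lower, Lcn2 (-3.53, adjusted p = 0.000352), Hamp and Cp, and 4 were higher, Saa4, Itih4, Itih3 and Fga.

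Against WT PBS livers, a comparison that the design text does not name, Stat3 and Cish were higher in the PiZ-p50-KO livers, where 10.5% of all genes were higher and 1.14% lower. Stat3 had 6.60, 7.36, 6.43, 6.55 and 6.52 log2 CPM in PiZ-p50-KO libraries, against 6.16, 6.27, 5.85, 6.10 and 6.13 in WT PBS libraries. The groups were apart, as for 6.08% of all genes in this direction, and the log2 fold change was 0.59 ± 0.16 (adjusted p = 0.0243), lost without WT PBS library 4 (adjusted p = 0.0644). Cish averaged 2.63 ± 1.66 in PiZ-p50-KO and 0.46 ± 0.57 in WT PBS livers, with overlap (2.17 ± 0.60, adjusted p = 0.0256), and this call was lost without PiZ-p50-KO library 2 or WT PBS library 4, 5 or 6 (adjusted p up to 0.0648). Socs1 was apart between the groups but did not pass (1.90 ± 0.68, adjusted p = 0.0695), and Il1rn had a log2 fold change of 1.60 ± 0.65 (adjusted p = 0.110).

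Which genes passed in this comparison depended on libraries 1 and 2 labelled PiZ-p50-KO. Without them Il1rn (2.53, adjusted p = 0.0110), Il1r1 (1.01, adjusted p = 0.0232), Osmr (1.22, adjusted p = 0.00132), Socs1 (2.34, adjusted p = 0.0478) and Socs3 (1.83, adjusted p = 0.0498) passed as higher than WT PBS. Stat3 (0.40, adjusted p = 0.0686) and Cish (1.11, adjusted p = 0.165) then did not. Of the acute-phase genes, Saa2 (3.68, adjusted p = 0.00203), Lcn2 (3.38, adjusted p = 0.00356), Saa3 (2.75, adjusted p = 0.0176) and Saa1 (2.70, adjusted p = 0.00486) had the largest differences among the lists, with all 5 PiZ-p50-KO libraries in the fit.

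**Figure D4:**
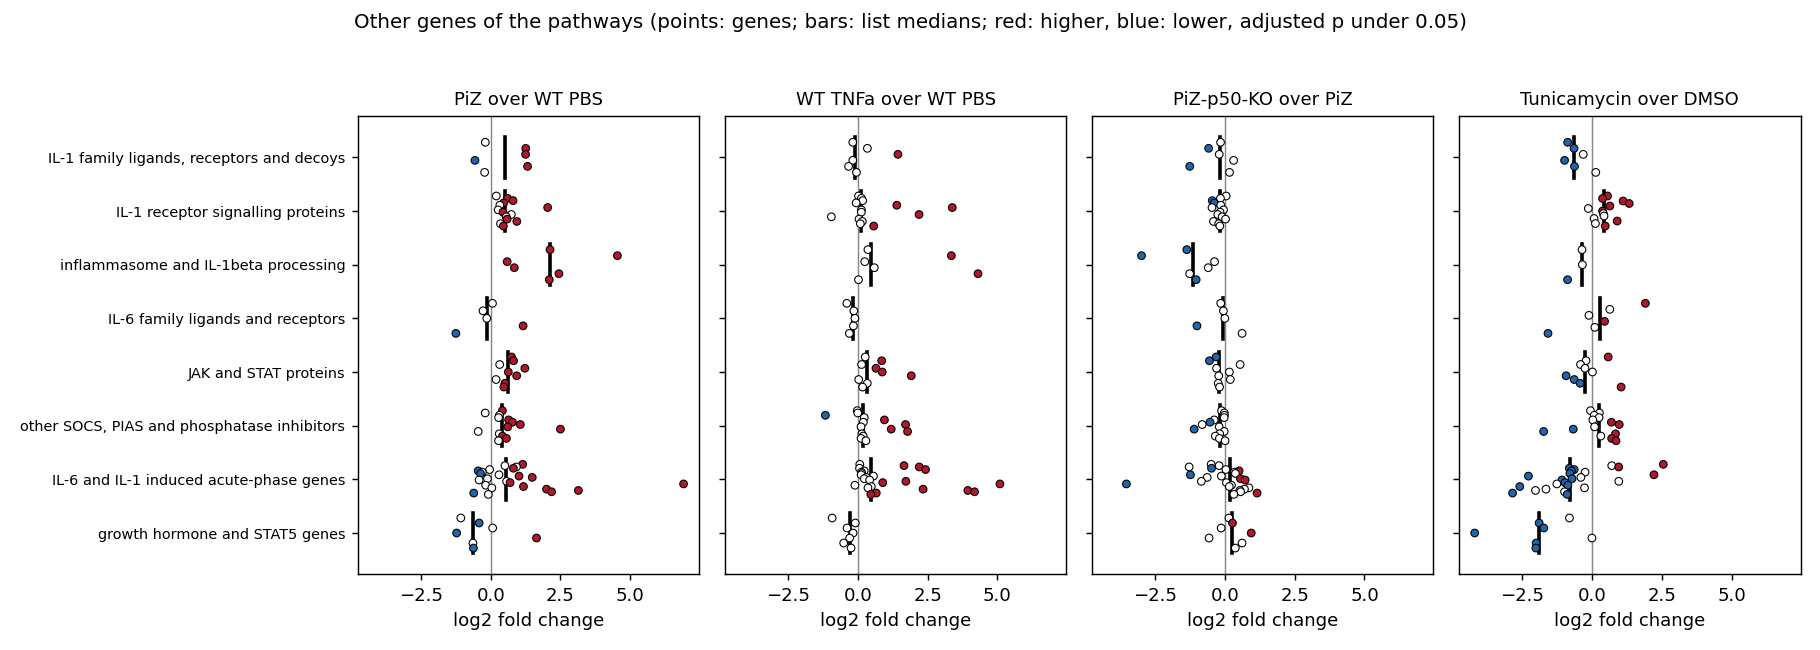
Log2 fold changes of the tested genes of 8 pathway lists, without the 10 genes, in 4 comparisons; points are genes, with those that passed limma's adjusted threshold of 0.05 coloured, and bars are the medians of the lists. In PiZ over WT PBS all 6 inflammasome genes lie to the higher side, and in tunicamycin over DMSO most growth hormone and STAT5 genes lie to the lower side.

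Across the 4 groups of the first table, TNFa livers had the highest mean of 7 genes and PiZ livers that of Il6st and Osmr. WT PBS livers had the lowest mean of 9 genes and the highest of Il6ra, the only gene of the 10 with that order. For Il1b, Il1rn, Il1r1, Socs1 and Socs3 the means fell in the order TNFa, PiZ, PiZ-p50-KO and WT PBS. For each of these genes some neighbouring means differ by less than the larger of their SDs. In TNFa and PiZ livers Il1r1 had 5.84 ± 0.41 and 5.64 ± 0.35 (SD), Il1b 2.73 ± 1.06 and 2.18 ± 0.73, and Il1rn 6.18 ± 1.45 and 5.05 ± 0.62. In PiZ and PiZ-p50-KO livers Socs1 had 0.75 ± 1.06 and 0.08 ± 1.32, and Socs3 5.44 ± 1.11 and 4.80 ± 1.67. Without libraries 1 and 2 labelled PiZ-p50-KO, Socs3 was higher in PiZ-p50-KO than in PiZ livers (log2 fold change 0.45). These orders describe groups that share libraries between comparisons and were not tested.

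After tunicamycin, Cish and Il1r1 were lower and Il6st was higher than in DMSO livers, and 6 of the 9 genes tested did not pass. In this comparison 45.3% of all 13388 genes tested were higher and 13.5% lower, and the median log2 fold change was -0.05 for the 9 genes and 0.38 for all genes. The comparison asks what a drug that stresses the endoplasmic reticulum changes at 24 hours. Il1rn and Socs3 did not pass, and Socs1 was too low to test.

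Cish ranged over 0.09 to 1.09 log2 CPM with a median of 0.23 in 6 tunicamycin libraries, against 0.84 to 3.75 with a median of 1.70 in 6 DMSO libraries. The DMSO libraries were widely spread and their lowest lay inside the tunicamycin range. Its log2 fold change was -1.71 ± 0.48 (limma, adjusted p = 0.00814), a 3.27-fold difference. Il1r1 ranged over 3.95 to 4.97 with a median of 4.16 after tunicamycin, against 4.62 to 5.36 with a median of 5.17 after DMSO. The groups overlapped at their edges, and the log2 fold change was -0.74 ± 0.20 (adjusted p = 0.00538). Il6st ranged over 8.34 to 8.75 with a median of 8.57 after tunicamycin, against 8.11 to 8.34 with a median of 8.18 after DMSO, meeting only at 8.34. Its log2 fold change was 0.34 ± 0.11 (adjusted p = 0.0213), below the median of all genes, 0.38. The call was lost without tunicamycin library 5 (adjusted p = 0.0531), and with equal medians it became -0.11 (adjusted p = 0.497).

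The other 6 of the 9 genes tested showed no difference past the threshold. Stat3 averaged 7.29 ± 0.25 log2 CPM after tunicamycin and 7.34 ± 0.31 after DMSO (log2 fold change -0.05, adjusted p = 0.824), and Socs3 2.93 ± 0.71 after tunicamycin and 3.22 ± 0.58 after DMSO (-0.30, adjusted p = 0.459). Il1rn averaged 1.91 ± 0.34 after tunicamycin and 1.51 ± 0.66 after DMSO (0.40, adjusted p = 0.240). Of the fits that left out 1 library, it passed only without DMSO library 5 (0.63, adjusted p = 0.0295). The macrophage markers of that library summed to 595 CPM where the other DMSO libraries had 195 to 311. Its neutrophil (15.3 CPM), lymphocyte (6.46 CPM), cholangiocyte (70.0 CPM) and hepatocyte markers (110350 CPM) were also the highest of the DMSO libraries. What part these cells have was not tested. Il1b averaged 0.45 ± 0.51 after tunicamycin and 0.32 ± 0.98 after DMSO (0.13, adjusted p = 0.799). Osmr averaged 2.42 ± 0.45 after tunicamycin and 2.07 ± 0.55 after DMSO (0.35, adjusted p = 0.283). Il6ra averaged 4.85 ± 0.26 after tunicamycin and 5.02 ± 0.53 after DMSO (-0.17, adjusted p = 0.516; limma, SD, n = 6 each). Socs1 was above 1 CPM in 1 of 6 tunicamycin and 3 of 6 DMSO libraries and was not tested. With equal medians Il6ra (-0.62, adjusted p = 0.0133), Stat3 (-0.50, adjusted p = 0.0233) and Socs3 (-0.75, adjusted p = 0.0446) passed as lower, in addition to Il1r1 and Cish.

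**Figure D5:**
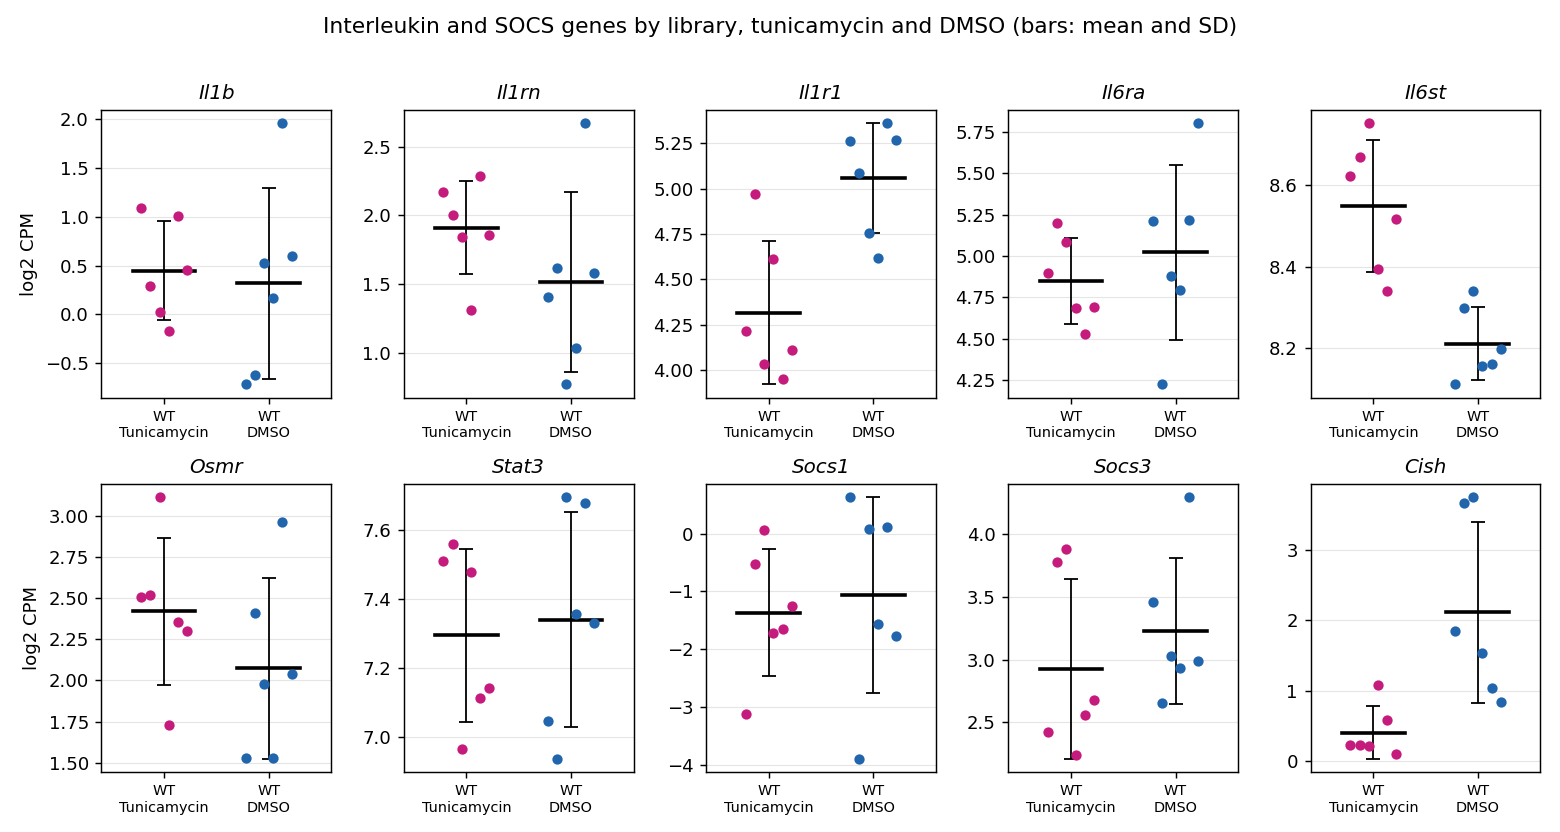
Levels of the 10 genes in log2 CPM in the second table, with the 6 tunicamycin libraries left of the 6 DMSO libraries; points are libraries and bars are the mean and SD. Cish spans 0.09 to 1.09 after tunicamycin and 0.84 to 3.75 after DMSO, and Stat3 and Il6ra overlap throughout.

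Neighbours of the 10 genes moved in both directions after tunicamycin, in a comparison in which 45.3% of all genes were higher and 13.5% lower. Of the 7 growth hormone and STAT5 genes tested, 5 were lower: Igfals, which carries insulin-like growth factor in blood (log2 fold change -4.21 ± 0.67, adjusted p = 0.000193), the receptor genes Ghr and Prlr, Igf1 and Serpina3k. Socs2 was lower too (-1.74 ± 0.38, adjusted p = 0.00168). Of the 24 genes on the acute-phase list 12 were lower, with Saa4 (-2.85 ± 0.35, adjusted p = 3.43e-05) and Orm2 (-2.59 ± 0.67, adjusted p = 0.0048) in front. On the same list 3 were higher, Apcs (2.55 ± 0.38, adjusted p = 0.000126), Hamp and Cebpd. In the IL-1 family 4 of 6 were lower, Il1rap (-0.99 ± 0.24, adjusted p = 0.0038), Il18, Il18bp and Il33, while 8 of 13 proteins below the IL-1 receptor were higher, with a median log2 fold change of 0.43, near the 0.38 of all genes.

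Of the IL-6 family genes tested, 6 in number, Lifr was lower (-1.58 ± 0.31, adjusted p = 0.00082) and Clcf1 and Il11ra1 were higher. Jak1 and Tyk2 were higher and Stat5a, Stat5b and Stat6 lower among 9 JAK and STAT genes, with Jak2 at -0.22 (adjusted p = 0.240) not past the threshold. Hepatocyte markers also moved: 4 of 6 were lower and 1 was higher, and their summed level was 24071 to 65374 CPM after tunicamycin and 84768 to 110350 CPM after DMSO. Macrophage markers summed to 156 to 226 CPM after tunicamycin and 195 to 595 CPM after DMSO, with 4 of 9 lower. Their part in the changes of Cish and Il1r1 was not tested.

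The genes whose levels were most like each of the 10 over the 21 libraries of the first table were found by the root mean square (RMS) difference in log2 CPM after centring each gene on its mean. Osmr was closest to Cd93 and Lyve1, at 0.34 for both, against an RMS deviation of 0.88 of Osmr itself. Il6st was closest to Nup153 (0.14) and Itgav (0.16), with its own RMS deviation at 0.30, and Stat3 to St3gal1 and Garem1 (0.17 for both, own deviation 0.36). Socs3 was closest to Junb (0.66) and Pim1 (0.69), and Socs1 to Gbp5 (0.74) and Calhm6 (0.77), with own deviations of 1.45 and 2.27. Il1b was closest to Arl5c (0.51) and Gbp2 (0.60), and Il1rn to Vcam1 (0.75) and Adamts4 (0.79), with own deviations of 1.51 and 2.43. Each named gene was picked as closest among all genes tested. A distance below the own deviation can follow from that choice, and likeness was not tested. The closest genes to Cish were Snhg17 (0.87) and Slc37a1 (0.90), to Il1r1 H3f3b (0.34) and Sgms1 (0.35), and to Il6ra Pck1 (0.30) and Tbc1d8 (0.32).

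In coordinates of GRCm38 from GENCODE M21, Il1b and Il1rn lie on the same chromosome, at chr2:129364570-129371139 on the minus strand and chr2:24336853-24351494 on the plus strand. Il1r1 is at chr1:40225080-40317257, Il6ra at chr3:89864059-89913196, Il6st at chr13:112464070-112510086 and Osmr at chr15:6813577-6874969. Stat3, at chr11:100885098-100939540, shares a chromosome with Socs3, at chr11:117966079-117970047. Socs1 is at chr16:10782240-10785536 and Cish at chr9:107296026-107302784. The predicted gene Gm38070, which overlaps Il1r1 on the same strand, reached at most 2.97 log2 CPM in the first table without WT PBS 2. The lowest level of Il1r1 in the same libraries was 4.05.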

How the data were processed

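Liver polyA RNA of 34 libraries was sequenced by the submitters. The authors deposited log2 CPM per gene in 2 tables (CPM, counts per M reads; a small prior count is part of each value), and the submitters' processing notes name bcl2fastq, DRAGEN, STAR, Subread featureCounts, edgeR and build GRCm38. Whole reads were recovered from the values: 100% of those under 200 reads were whole within 0.1 read. Genes above 1 CPM in at least 5 libraries (first table) or 6 (second) were tested, 13285 and 13388, and these include 10 and 9 of the 10 genes. Linear models were fitted to the log2 CPM with limma 3.58.1 under R 4.3.3, using lmFit and then eBayes with an intensity trend, and tested two-sided with Benjamini-Hochberg adjustment over all genes tested and a threshold of 0.05. A shared fit per table was used, without WT PBS 2 in the first. The labels put the tables in different batches, so no library was compared across them. The procedure was tested on simulated data. In all, 6 comparisons were made, 4 named by the series' design.

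The labels do not say how the libraries of a group relate to mice, and p-values measure the spread between libraries. Same-numbered libraries did not deviate together in every pair (correlations of deviations -0.23 to 0.56). That does not settle whether the numbers pair them, and they were used as a block only in an alternative fit. For 3 tunicamycin columns the labels do not settle the number, and the block was then fitted on the other 3 pairs. Positions are from GENCODE M21, which holds 99.4% of the IDs. The 10 genes, the 8 pathway lists, the 7 cell type lists and the alternatives were chosen with earlier results of these data known. Named were all 10 genes, Nfkb1, 9 pathway neighbours (Il6, Osm, Lif, Il1a, Lifr, Il1rap, Jak2, Socs2 and 1 that is not reported here), the 4 genes of the pathway lists with the largest called change per comparison, and the 2 genes most like each of the 10; other names were chosen after their values were seen. Alternatives were other libraries left out, log2(CPM + 1), no filter, a filter at 4 CPM, equal medians, quantile normalization, limma voom on the whole reads, only the 2 groups compared, and the replicate number as a block.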

Additional observations from a re-analysis of the deposited data

Results flagged for a closer look

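Of 60 groups of libraries (10 genes in 6 groups), 11 held a library far from the rest. For a single group chance gives about 1 in 20. The 10 genes share the same libraries, so the 60 searches are not independent and their count cannot be set against that rate. The ratio given is the gap to the nearest library over the range of the group. TNFa library 4 was low for Il1rn (0.943), Osmr (0.739), Il1b (0.699), Socs3 (0.663) and Cish (0.633), and TNFa library 5 was low for Il6st (0.650). PiZ-p50-KO library 2 was high for Stat3 (0.811), and PiZ library 1 was high for Socs1 (0.780). WT PBS 2 was high for Socs1 (0.799), Osmr (0.798) and Cish (0.699).

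WT PBS 2, which was left out of the fits except where its inclusion is stated, was above the other 5 WT PBS libraries for 6 genes. Its levels in log2 CPM, against the highest of the other 5, were 2.95 against 0.52 for Il1b, 2.95 against 1.42 for Il1rn, 5.52 against 2.14 for Osmr, 4.40 against -1.31 for Socs1, 5.43 against 5.06 for Socs3 and 4.99 against 1.34 for Cish. Its lymphocyte markers summed to 117 CPM, against 1.35 to 3.30 CPM in the other WT PBS libraries. Its hepatocyte markers summed to 7942 CPM, against 61908 to 118076 CPM over the other 21 libraries of the first table.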

How the results depend on the processing

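Counts of the 10 genes that passed are given first, then counts of all genes, as PiZ over WT PBS (7 and 6886), TNFa over WT PBS (9 and 1551), PiZ-p50-KO over PiZ (3 and 3313), PiZ-p50-KO over WT PBS (2 and 1550), PiZ over TNFa (2 and 7416) and tunicamycin over DMSO (3 and 7869). With WT PBS 2 included they were 4 and 2336 for PiZ over WT PBS, 547 genes for TNFa, 1 and 468 for PiZ-p50-KO over PiZ, 0 and 12 for PiZ-p50-KO over WT PBS, and 3406 genes for PiZ over TNFa. Without libraries 1 and 2 labelled PiZ-p50-KO they were 0 and 1479 over PiZ, and 5 and 2427 over WT PBS. Equal medians gave 4 in PiZ over WT PBS, 0 and 1000 in PiZ-p50-KO over WT PBS, 5 in PiZ over TNFa and 5 after tunicamycin. Quantile normalization gave 4 in PiZ over WT PBS and 0 and 595 in PiZ-p50-KO over WT PBS, where no filter gave 1 and 819, voom 1, and a fit of only the 2 groups 0 and 321; that fit gave 2201 genes in PiZ-p50-KO over PiZ. With 1 library left out, the 10 genes gave 7 to 8, 8 to 9, 2 to 4, 0 to 3, 2 to 5 and 2 to 4 calls in the order of comparisons above, and all genes 5947 to 7311, 1165 to 2095, 2197 to 3770, 703 to 2113, 6414 to 7605 and 6799 to 8703. In PiZ over WT PBS, Socs1 was lost with log2(CPM + 1) (adjusted p = 0.0695), quantile normalization (0.0859) and voom (0.103). A fit of only the 2 groups gave 9 of the 10 genes there, with Stat3 and Socs3 added.

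The replicate number was also fitted as a block, although it is not settled that it pairs the libraries. With it, 9 of the 10 genes passed in PiZ over WT PBS, and 8 of the 10 with 781 genes in all for TNFa. The counts were 1 and 994 in PiZ-p50-KO over PiZ, 0 and 0 in PiZ-p50-KO over WT PBS, and 2 of the 10 in PiZ over TNFa. In tunicamycin over DMSO, where only numbers 1, 5 and 6 are settled in both groups, the block on these 3 pairs gave 2 of the 10 genes and 6520 genes in all; Il6st no longer passed (adjusted p = 0.0641) and Il1b turned to -0.15.

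Signs of log2 fold changes turned, among values not called, for Stat3 in PiZ over WT PBS with equal medians (-0.12), for Socs3 (0.45) and Cish (-0.88) in PiZ-p50-KO over PiZ without libraries 1 and 2, and for Cish there with 1 library left out (-0.36 to 0.68). Il6ra in PiZ-p50-KO over WT PBS was 0.033 with WT PBS 2, 0.27 without libraries 1 and 2 and -0.20 to 0.17 with 1 left out. In PiZ over TNFa equal medians gave Il6ra -0.17, Il6st -0.23 and Osmr -0.28, quantile normalization Il6ra -0.088 and Osmr -0.30, and 1 library left out Osmr -0.024 to 0.26. After tunicamycin equal medians gave Il1b -0.32, Il1rn -0.052, Osmr -0.10 and, as the only called value that turned, Il6st -0.11; quantile normalization gave Il1b -0.13, and 1 library left out Il1b -0.077 to 0.46 and Stat3 -0.13 to 0.025. The cause was not tested. Low reads limit Socs1, Il6, Osm and Lif most.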
